A study of Danio rerio with 12 samples.

Results

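Zebrafish embryos in which the B1 *sox* genes *sox2*, *sox3*, *sox19a* and *sox19b* had been knocked down together were compared with wild-type embryos at 75% epiboly (75%E), the mid to late gastrula. The comparison rests on 4 of the 12 Affymetrix Zebrafish Genome arrays of the series, chosen by their sample labels. They are 2 arrays of quadruple knockdown (QKD) embryos and 2 of wild-type (WT) embryos, all whole embryos of the TL strain. QKD embryos had been injected with a mixture of 8 antisense morpholino oligonucleotides (MOs), 2 against each gene, and WT embryos were not injected. According to the labels, each array holds the RNA of 100 embryos and the arrays of a group are biological replicates. The 8 arrays of 30% epiboly (30%E) and tailbud (TB) contribute to the estimate of the spread and are otherwise used only as background. Of 15617 probe sets, 115 array controls were left out and 15502 were tested. Several features limit the groups as models. The knockdown is transient, the WT embryos received no control MO, and QKD embryos are known to be slow in epiboly, so that injection and developmental delay cannot be told apart here from the loss of B1 SOX.

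B1 SOX proteins are transcription factors of the HMG box type that bind DNA together with partner proteins, POU factors among them. They are present throughout the early ectoderm and later mark the neural plate, where they are known for holding cells in a progenitor state. At mid gastrulation the ectoderm is being divided by a gradient of Bmp signalling into neural plate, plate border and epidermis, while Fgf, Wnt, Nodal and retinoic acid signals give it and the involuting mesoderm and endoderm their regional character.

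The oligonucleotides that define the QKD group are shown because the whole comparison rests on them. They are 25 bases long, are written from 5′ to 3′ as the study lists them, and were made to block translation. Capitals mark the triplet CAT, which is the reverse complement of the start codon ATG. This triplet was found in 3 of the 8 oligonucleotides, 1 each for *sox3*, *sox19a* and *sox19b*, and 2 copies of it adjoin in the *sox19b* oligonucleotide.
sox2-MO2: gagaggctgctgaagttaccttagc
sox2-MO3: gaaagtctaccccaccagccgtaaa
sox3-MO1: taCATtcttaaaagtggtgccaagc
sox3-MO2: gaagtcagtcaaaagttcagagagc
sox19a-MO1: gtaCATggctgccaacagaagttag
sox19a-MO2: aaaacgagagcgagccgtctgtaac
sox19b-MO1: gtaCATCATgccacttctcgctttg
sox19b-MO2: acgagcgagcctaatcaggtcaaac

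The deposited value is a signal in linear RMA units, and every change is given as log2 of QKD over WT with its standard error (SE) from the fit. The lower quartile on these 4 arrays, 22.5 to 23.5, serves as the level under which a signal is described as near background. Where both arrays of the dimmer group lay at or under it, the fold was also taken with each array's lower quartile in place of its signal and is given as a bound ("at least"), since the fitted change then depends on signals near background. Replicate arrays differed by a median of 0.12 in log2 in QKD embryos and 0.16 in WT embryos. Markers of the enveloping layer, endoderm and germ cells were above the lower quartile in all 4 arrays. The keratin *krt4* of the enveloping layer had signals of 6726 and 7254 in QKD embryos, against 6469 and 7048 in WT embryos. Endodermal *sox17* had 128 and 129 in QKD embryos, against 134 and 115 in WT embryos. Germ cell *ddx4* measured 601 and 531 in QKD embryos, against 802 and 602 in WT embryos. These 3 markers did not pass the test (adjusted p = 0.923, 0.881 and 0.317).

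Expression differed in both directions to a similar extent. At an adjusted p under 0.05, 605 probe sets were lower in QKD embryos, 3.9% of those tested, and 696 were higher, 4.49%. Beyond a change of 1 in log2 there were 142 lower (0.916%) and 144 higher (0.929%). With 1 probe set per gene, 406 of 8793 genes were lower (4.62%) and 414 higher (4.71%), and these gene percentages are the background for the gene lists that follow. Those lists were chosen with earlier results of these data known. A share above the background therefore describes a list and is not a test of it. The median change over all probe sets was -0.02. The fitted changes ran from -4.97 to 3.54, and 33 probe sets fell by more than 4-fold while 18 rose by as much. No symbol was assigned to 115 of the lower and 205 of the higher probe sets. Having both QKD arrays on one side of both WT arrays was common, as 7259 probe sets (46.8%) did. Without QKD replicate 1 there were 303 lower and 355 higher, without QKD replicate 2 there were 310 and 305, and with the replicate number as a block 1209 and 1413. Calls that stood with any array of the 4 left out numbered 219 lower and 224 higher, of which 125 and 118 were beyond 1 in log2. Arrays of whole embryos cannot tell fewer cells of a type from less RNA per cell.

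**Figure D1:**
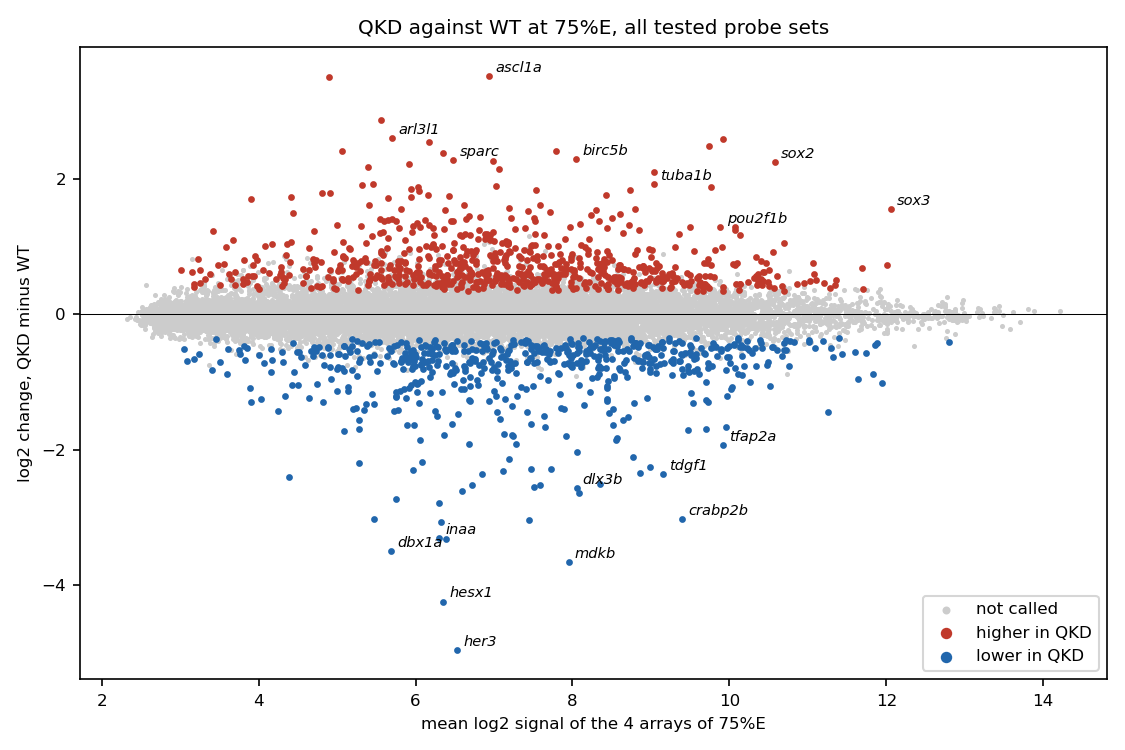
Each point is a probe set, with the mean log2 signal of the 4 arrays of 75%E on the x axis and the log2 change, QKD minus WT, on the y axis. Red points are the 696 called higher and blue points the 605 called lower in QKD embryos, with *her3* lowest at a fitted -4.97 and *ascl1a* highest at 3.54.

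Transcripts of the targeted genes were higher, not lower, in QKD embryos. The MOs were made to block translation, so the transcript level does not measure the knockdown. For the rise the study proposes negative autoregulation among B1 *sox* genes and leaves stabilization of these mRNAs by the MOs possible. Neither was tested here. Of 5 measured B1 *sox* genes, 4 were higher and 0 lower. Lower and higher genes numbered 0 and 2 without QKD replicate 1. *sox2* had signals of 3328 and 3347 in QKD embryos, against 705 and 697 in WT embryos (2.25 ± 0.14, adjusted p = 4.51e-06), a 4.76-fold difference with arrays of each group nearly equal. Of its other probe sets 1 was called at 2.59 and 1 was not, at 0.02. *sox3* rose as well, with 7089 and 7548 in QKD embryos, against 2249.5 and 2735 in WT embryos (1.56 ± 0.12, adjusted p = 1.27e-05), and of its other probe sets 1 was called at 2.49 and 1 was not, at 0.65. *sox19b*, the B1 gene supplied maternally, measured 595 and 494 in QKD embryos, against 259.7 and 193 in WT embryos (1.28 ± 0.26, adjusted p = 0.0117), and *sox19a* 3192 and 3069.7 in QKD embryos, against 2058 and 2340.2 in WT embryos (0.51 ± 0.12, adjusted p = 0.0192). Their calls were less secure and were lost for *sox19a* without QKD replicate 1 (adjusted p = 0.111), QKD replicate 2 (0.0796) or WT replicate 1 (0.0891), and for *sox19b* without QKD replicate 1 (0.0933) or WT replicate 2 (0.077). With all arrays a dimmer probe set of *sox19b* was also called, at 1.47 (adjusted p = 0.000672). *sox1a*, which was not targeted, gave 56.1 and 51.9 in QKD embryos, against 67.2 and 50.6 in WT embryos (adjusted p = 0.715). By RT-PCR the study also reports a rise of *sox1b* in QKD embryos at early stages. That gene was not targeted either and was not measured here. Among 13 other *sox* genes 3 were higher and 0 lower. Counts of lower and higher genes became 2 and 4 with the replicate block, 1 and 3 without WT replicate 2. The SoxC genes *sox11b* (QKD 2833 and 2764, WT 1704 and 1583, 0.77 ± 0.10, adjusted p = 0.000584) and *sox4a* (QKD 65.9 and 84.3, WT 20.7 and 28.2, 1.63 ± 0.24, adjusted p = 0.00178), which act in neurons leaving the progenitor state, were among them. The third was *sox10*, a neural crest factor, at QKD 38.0 and 54.1, WT 23.2 and 26.9 and 0.86 ± 0.17, adjusted p = 0.00807, whose call was lost without QKD replicate 2 (adjusted p = 0.0719) or WT replicate 1 (0.0507).

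Repressors and progenitor factors of the neural plate included the most negative fitted change, that of *her3*. Of 21 measured genes on that list 11 were lower (52.4%) and 1 higher, with a median change of -0.58, and 10 of the 11 stayed lower whichever array was left out. *her3*, a Hairy/E(spl) repressor that keeps proneural genes off between the first neuronal domains, had signals of 16.4 and 16.6 in QKD embryos, against 651 and 411 in WT embryos (-4.97 ± 0.17, adjusted p = 6.71e-08). Both QKD arrays were near background, and the signal was at least 22.6-fold lower. A dimmer probe set of *her3* was not called, at -0.24. *hesx1*, a homeodomain repressor of the anterior neural plate, followed with 22.4 and 15.7 in QKD embryos, against 398 and 319 in WT embryos (-4.25 ± 0.22, adjusted p = 7.46e-07). Its QKD arrays too were under the lower quartile, and it was at least 15.6-fold lower. *zic1*, a zinc finger factor of the dorsal neural plate, gave 35.1 and 43.1 in QKD embryos, against 235 and 239 in WT embryos (-2.61 ± 0.12, adjusted p = 5.23e-07). *prdm14*, a PR domain protein linked with pluripotency and with motor neuron growth, gave 67.4 and 95.5 in QKD embryos, against 366 and 418 in WT embryos (-2.29 ± 0.19, adjusted p = 3.58e-05). Smaller falls were called for *zic5* (-1.73), *her9* (-1.24), *zic2a* (-1.10), *nkx1.2la* (-1.10), *foxb1b* (-1.01) and *her5* (-0.97). Both QKD arrays of *zic5* were near background, so that it was at least 2.72-fold lower, and a dimmer probe set of *zic2a* at -0.38 was not called. Not every *zic* gene moved, since *zic2b* had signals of 2726 and 3006 in QKD embryos, against 2660.2 and 2566 in WT embryos (adjusted p = 0.538). These lower and higher counts were 11 and 2 with the replicate block, 10 and 0 without QKD replicate 1, 10 and 0 without QKD replicate 2, 10 and 0 without WT replicate 1. The 1 increase was that of *her6*, at QKD 966 and 1001, WT 697 and 808 and 0.39 ± 0.10, adjusted p = 0.0421, lost without QKD replicate 1 (adjusted p = 0.129), QKD replicate 2 (0.202) or WT replicate 1 (0.173).

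Regulators of the forebrain and eye field were lower in 13 of 33 cases (39.4%) and higher in 2, with a median of -0.17. *fezf2*, a zinc finger repressor of the forebrain, had signals of 28.5 and 27.7 in QKD embryos, against 125 and 152 in WT embryos (-2.30 ± 0.21, adjusted p = 6.06e-05). *six3a*, a homeodomain factor of the anterior plate, gave 33.0 and 30.3 in QKD embryos, against 145 and 143 in WT embryos (-2.19 ± 0.11, adjusted p = 6.32e-07). In both cases the QKD arrays agreed closely and lay little above the lower quartile. *rx3*, which specifies the eye field, gave 43.6 and 44.6 in QKD embryos, against 98.3 and 237 in WT embryos (-1.79 ± 0.28, adjusted p = 0.00267). Its 2 WT arrays differed from each other by 2.41-fold, yet the lower one was still over the QKD arrays, and the change was -1.16 without WT replicate 2 and -2.43 without WT replicate 1. The LIM-only cofactors *lmo4a* and *lmo4b* were among the brighter members. *lmo4a* measured 466 and 454 in QKD embryos, against 1388 and 1612 in WT embryos (-1.70 ± 0.14, adjusted p = 2.43e-05), and *lmo4b* 212 and 234 in QKD embryos, against 519 and 561 in WT embryos (-1.27 ± 0.11, adjusted p = 4.07e-05). *lhx5*, a LIM homeodomain factor of the forebrain, measured 217 and 236 in QKD embryos, against 562 and 629 in WT embryos (-1.39 ± 0.13, adjusted p = 8.56e-05). *six7* (-1.27), *pax6b* (-1.21) and *lmo3* (-0.85) were lower too. For *lmo3*, whose QKD arrays were near background, the bound was at least 1.28-fold, and of its dimmer probe sets 1 was called at -1.43 and 1 was not, at -0.17. The broad anterior marker *otx2b* did not pass the test, at QKD 707 and 867, WT 889 and 1029 (adjusted p = 0.332), whereas *otx1* was called at -0.58 ± 0.12, adjusted p = 0.0156 (QKD 564 and 571, WT 838 and 854), a call lost without QKD replicate 1 (adjusted p = 0.087), QKD replicate 2 (0.0804) or WT replicate 2 (0.0581). The higher members were *irx3a* (0.74 ± 0.17, adjusted p = 0.0211) and *nkx2.4b* (0.49 ± 0.12, adjusted p = 0.0303), and those calls were lost for *irx3a* without QKD replicate 1 (adjusted p = 0.084), QKD replicate 2 (0.126) or WT replicate 1 (0.112), and for *nkx2.4b* without QKD replicate 1 (0.0873), QKD replicate 2 (0.18) or WT replicate 1 (0.131). On this list the lower and higher calls were 9 and 0 without QKD replicate 1, 9 and 0 without QKD replicate 2, 11 and 0 without WT replicate 1.

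Farther back along the neural axis 6 of 48 genes were lower (12.5%) and 3 higher, with a median of -0.06. Among them was *dbx1a*, a homeobox gene of intermediate neural progenitors, with signals of 18.5 and 12.5 in QKD embryos, against 166 and 180.0 in WT embryos (-3.51 ± 0.19, adjusted p = 1.04e-06). Both QKD arrays were under the lower quartile, and it was at least 7.56-fold lower. *hoxc8a*, a posterior homeobox gene, gave 78.4 and 82.9 in QKD embryos, against 299 and 257 in WT embryos (-1.78 ± 0.14, adjusted p = 1.6e-05), while its 2 other probe sets, at -0.10 and -0.58, were not called. *sp8b*, a zinc finger factor of the brain and tailbud, gave 71.9 and 88.1 in QKD embryos, against 254 and 184 in WT embryos (-1.44 ± 0.18, adjusted p = 0.000483). *hoxb9a* (-1.13) and *meis2b* (-1.08), a Hox cofactor, were also lower. In the other direction, *olig2*, a bHLH factor of motor neuron progenitors, measured 112 and 154 in QKD embryos, against 23.3 and 33.5 in WT embryos (2.23 ± 0.19, adjusted p = 4.11e-05), and *pou3f1*, a neural POU factor, 87.4 and 95.5 in QKD embryos, against 30.6 and 24.8 in WT embryos (1.73 ± 0.17, adjusted p = 8.03e-05). Their WT arrays were close to the lower quartile and their QKD arrays clearly over it. The hindbrain marker *hoxb1a* (QKD 38.7 and 45.4, WT 32.6 and 39.0) and the midbrain to hindbrain marker *pax2a* (QKD 26.8 and 25.8, WT 27.3 and 22.8) did not pass the test (adjusted p = 0.501 and 0.798). All 4 arrays of *pax2a* lay close to the lower quartile, so a fall could hardly have been measured. Calls lower and higher numbered 8 and 6 with the replicate block.

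Proneural and Notch pathway genes split, with 4 of 27 lower and 4 higher and a median of -0.03. *ascl1a*, a proneural bHLH activator, had signals of 764 and 228 in QKD embryos, against 34.7 and 37.4 in WT embryos (3.54 ± 0.41, adjusted p = 0.000307). All QKD values were over all WT values, but the QKD arrays differed from each other by 3.35-fold. Its change was 2.66 without QKD replicate 1 and 4.41 without QKD replicate 2, and in the first case that of *nat8l*, described further on, was larger at 2.75. *dlb*, a Delta ligand for Notch, behaved alike with 139 and 58.1 in QKD embryos, against 15.6 and 24.8 in WT embryos (2.19 ± 0.34, adjusted p = 0.00216) and a 2.38-fold gap between QKD arrays, and its dimmer probe set was not called, at 0.30. The change of *dlb* was 1.56 without QKD replicate 1 and 2.82 without QKD replicate 2. *neurog1*, the proneural gene of the first neurons, went the other way with 25.5 and 21.6 in QKD embryos, against 62.7 and 60.2 in WT embryos (-1.39 ± 0.20, adjusted p = 0.00134). The QKD arrays of *neurog1* lay close to the lower quartile, so the size of its fall is not exact. *nrarpb*, a feedback inhibitor induced by Notch, was lower with 71.7 and 61.7 in QKD embryos, against 176 and 150.1 in WT embryos (-1.29 ± 0.18, adjusted p = 0.00126), though of its 3 other probe sets only that at -1.80 was called. The ligands *dla* (QKD 386 and 267, WT 267 and 314) and *dlc* (QKD 322 and 279, WT 297 and 242) did not pass the test (adjusted p = 0.673 and 0.633). The numbers lower and higher were 8 and 6 with the replicate block, 2 and 3 without QKD replicate 2. Of 26 genes of the neuronal cytoskeleton and membrane 2 were lower and 3 higher. The increases were *tuba1b*, a neuronal alpha tubulin (QKD 979 and 1078, WT 203 and 356, 1.93 ± 0.27, adjusted p = 0.00123), *calb2b*, a calcium buffer (QKD 93.9 and 114, WT 41.1 and 39.8, 1.36 ± 0.14, adjusted p = 0.000106), and *rtn1a*, a reticulon (QKD 151 and 159.8, WT 55.7 and 84.8, 1.18 ± 0.18, adjusted p = 0.00195). The paralog *rtn1b* fell instead (QKD 95.8 and 64.4, WT 224 and 163, -1.28 ± 0.20, adjusted p = 0.00221). The other decrease was *ckbb* (-1.31). The internexin gene *inaa*, described further on, was not matched to this list and fell by more than either. Markers of differentiated neurons such as *elavl3* (QKD 59.1 and 64.4, WT 64.0 and 60.5, adjusted p = 0.974) and *stmn2a* (QKD 37.0 and 47.2, WT 34.1 and 29.7, adjusted p = 0.0838) did not pass. Lower and higher genes numbered 1 and 3 without QKD replicate 2.

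**Figure D2:**
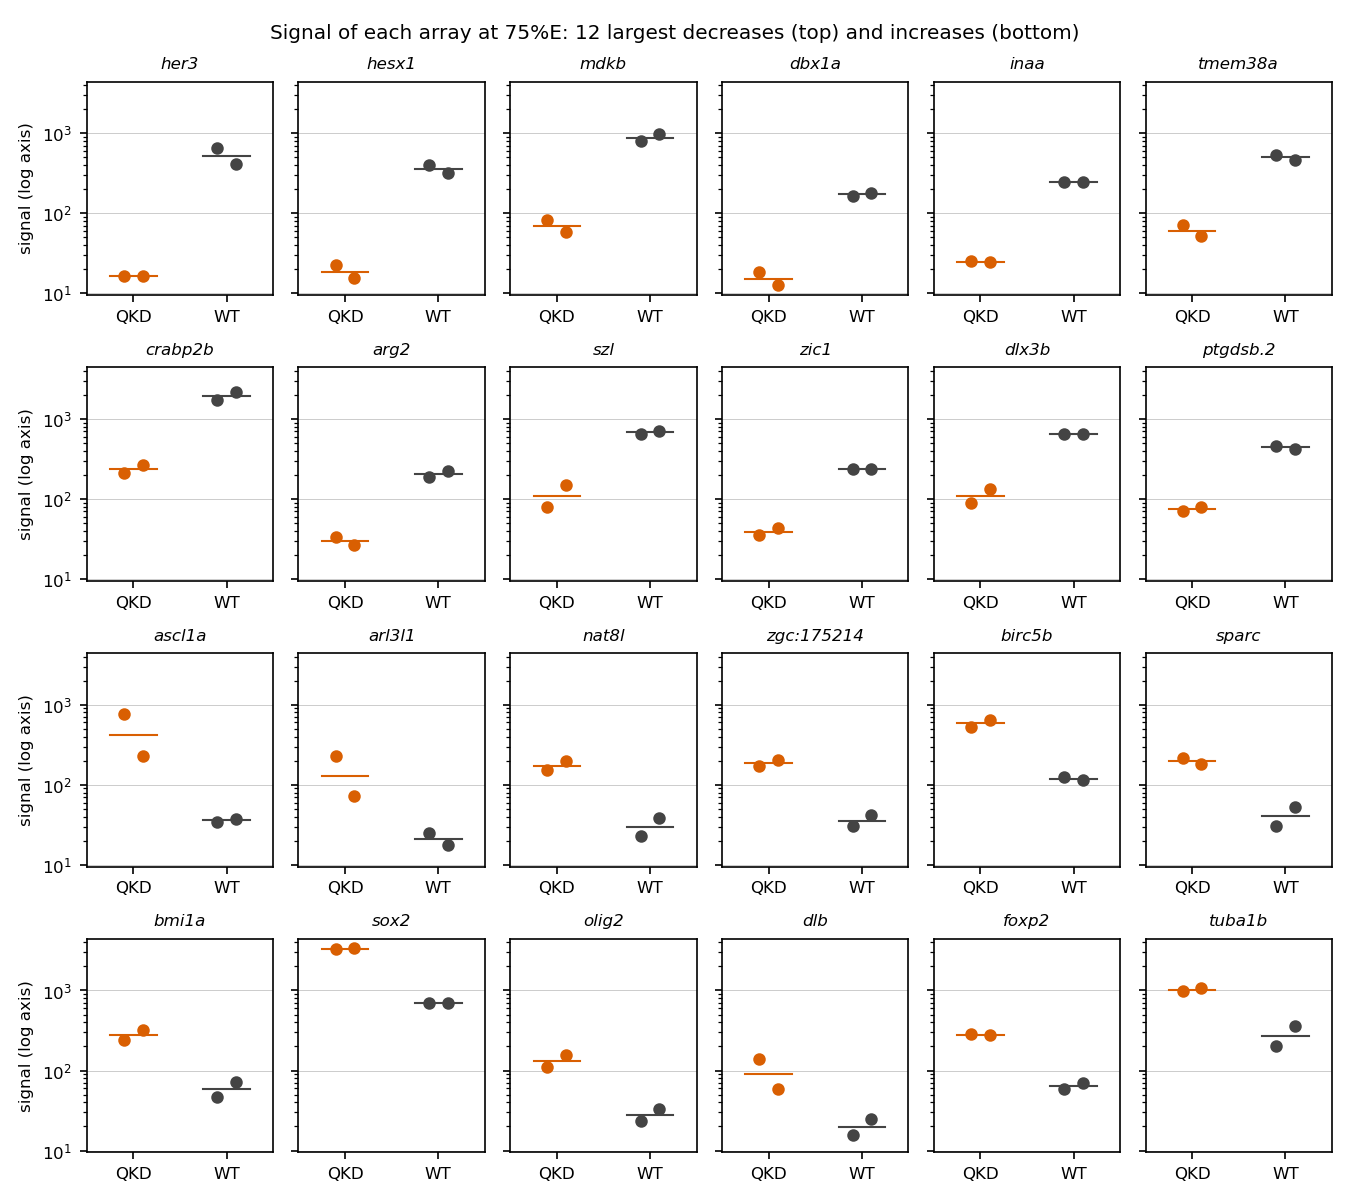
Each panel gives 1 gene, with its signal on each of the 2 QKD arrays and the 2 WT arrays of 75%E on a log axis and a bar at the geometric mean. The upper rows hold the 12 largest fitted decreases and the lower rows the 12 largest fitted increases, taken only from called genes whose groups do not overlap. *ascl1a*, *arl3l1* and *dlb* show QKD arrays that lie over 2-fold apart.

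Of 27 measured genes of the non-neural ectoderm 14 were lower (51.9%) and 0 higher, with a median of -0.51, and 10 stayed lower whichever array was left out. *dlx3b*, a homeodomain factor of the preplacodal and epidermal ectoderm, had signals of 90.04 and 132 in QKD embryos, against 648 and 645 in WT embryos (-2.57 ± 0.18, adjusted p = 9.9e-06). The AP-2 factors *tfap2c*, with 90.8 and 101 in QKD embryos, against 524 and 416 in WT embryos (-2.28 ± 0.22, adjusted p = 9.36e-05), and *tfap2a*, with 474 and 516 in QKD embryos, against 1973 and 1818 in WT embryos (-1.94 ± 0.13, adjusted p = 6.52e-06), fell by 4.86-fold and 3.83-fold, although a dimmer *tfap2c* probe set at -0.14 was not called. *klf2b*, a Krüppel-like factor, gave 202 and 267 in QKD embryos, against 1192 and 1032 in WT embryos (-2.26 ± 0.15, adjusted p = 7.3e-06). *foxi1*, which marks ventral and placodal ectoderm, gave 188 and 206 in QKD embryos, against 674 and 761 in WT embryos (-1.86 ± 0.15, adjusted p = 1.94e-05). *tp63*, the p53 family member required for epidermis, was lower on both of its probe sets (QKD 57.1 and 51.5, WT 127 and 112 on the brighter, -1.14 ± 0.13, adjusted p = 0.000369). The dimmer probe set of *tp63* gave a larger fall, -3.03 (adjusted p = 8.97e-05), so the size of the change is uncertain. The close paralogs *ptgdsb.1* and *ptgdsb.2*, of the lipocalin type prostaglandin D synthases, gave QKD 71.7 and 89.6, WT 413 and 510.1 and QKD 71.6 and 78.6, WT 460.0 and 426. Their changes were -2.52 and -2.56, and the probes may not separate them. Counts of lower and higher genes became 16 and 1 with the replicate block, 12 and 1 without WT replicate 1.

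At the plate border 5 of 23 genes were lower and 2 higher, with a median of 0.01. Of the 5 measured *msx* homeobox genes, repressors of the border and dorsal plate, 3 were lower, and *msx2a* (0.01) and *msx2b* (-0.37, adjusted p = 0.11, and 0.0405 with the replicate block) were not called. The other decreases were *tfap2a*, given above, and *mycn* (-0.57 ± 0.14, adjusted p = 0.0307), whose dimmer probe set at -0.49 was not called and whose call was lost without QKD replicate 1 (adjusted p = 0.202), QKD replicate 2 (0.0535), WT replicate 1 (0.065) or WT replicate 2 (0.114). *msx1a* had 45.6 and 56.3 in QKD embryos, against 268 and 255 in WT embryos (-2.37 ± 0.13, adjusted p = 1.04e-06), *msx1b* 201 and 214 in QKD embryos, against 610.4 and 683 in WT embryos (-1.64 ± 0.14, adjusted p = 4.11e-05) and *msx3* 115 and 119.8 in QKD embryos, against 353 and 317 in WT embryos (-1.51 ± 0.23, adjusted p = 0.00187), though of 2 further *msx3* probe sets the one at -0.23 was not called. The 2 increases were *sox10*, given above, and *twist1a* (0.72), and each of these calls was lost with at least 1 array left out. Crest factors *foxd3* (QKD 689.9 and 570.2, WT 734 and 709) and *pax3a* (QKD 8.73 and 9.32, WT 11.8 and 11.4) did not pass the test (adjusted p = 0.481 and 0.116). *pax3a* was near background on all 4 arrays and called with the replicate block (adjusted p = 0.0342). These lower and higher counts were 8 and 5 with the replicate block, 4 and 1 without QKD replicate 1, 4 and 0 without QKD replicate 2, 4 and 1 without WT replicate 1.

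Within the Bmp pathway 5 of 37 genes were lower and 6 higher, with a median of -0.14. The secreted Bmp feedback inhibitor *szl* (sizzled) fell most, with 80.0 and 148 in QKD embryos, against 650.5 and 714 in WT embryos (-2.65 ± 0.27, adjusted p = 0.000129), and the ligand *bmp2b* gave 537 and 532 in QKD embryos, against 943 and 996 in WT embryos (-0.86 ± 0.10, adjusted p = 0.000378). The ligands *bmp4* (QKD 123 and 186, WT 202 and 259, adjusted p = 0.0836) and *bmp7a* (QKD 231 and 266, WT 337 and 327, adjusted p = 0.135) did not pass, though both did with the replicate block (adjusted p = 0.00214 and 0.0167). Increases included *fsta*, the secreted antagonist follistatin (QKD 178 and 167, WT 64.0 and 82.1, 1.25 ± 0.15, adjusted p = 0.000399), and *smad1*, a signal transducer of the pathway (QKD 106 and 116, WT 72.1 and 66.7, 0.68 ± 0.11, adjusted p = 0.00362). Antagonists did not move in 1 direction, since *chrd* (chordin) was called lower at -0.79 and *nog1* (0.46) and *nog3* (0.58) higher. The ligand *admp* was called higher too (0.92). Of the 5 lower and 6 higher calls, 2 and 2 stayed whichever array was left out, namely those of *szl*, *bmp2b*, *fsta* and *smad1*. The calls of *chrd*, *nog1*, *nog3* and *admp* were each lost with at least 1 array left out. Among ventral repressors *ved* was called lower (-0.63), whereas *vent* (-0.33) and *vox* were not called. Signals of *vox* were QKD 2639 and 2483, WT 2737 and 2924 (adjusted p = 0.463). *gata2a* was also called lower (-0.76), and *eve1* (-0.27) was not called. On this list the lower and higher calls were 11 and 7 with the replicate block, 3 and 2 without QKD replicate 1, 5 and 3 without QKD replicate 2, 3 and 5 without WT replicate 2.

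On the list for Fgf, Wnt and retinoic acid signalling 11 of 69 were lower and 2 higher, with a median of -0.12. *mdkb*, the heparin-binding growth factor midkine b of the neural plate, had signals of 81.8 and 59.0 in QKD embryos, against 796 and 977 in WT embryos (-3.67 ± 0.16, adjusted p = 3.83e-07), a fall of 12.7-fold. Among genes that handle retinoic acid 2 were lower. *crabp2b*, which carries retinoic acid in the cell, gave 208 and 269 in QKD embryos, against 1731 and 2153 in WT embryos (-3.03 ± 0.14, adjusted p = 5.23e-07), and *cyp26a1*, which degrades it, 441 and 708 in QKD embryos, against 1686 and 1873 in WT embryos (-1.67 ± 0.19, adjusted p = 0.000341). The others on the list were not called, with changes of 0.01 for *cyp26b1*, -0.12 for *cyp26c1*, -0.31 for *crabp2a*, -0.05 for *crabp1a*, -0.33 for *aldh1a2* and -0.10 for *dhrs3a*. In the Fgf pathway the receptor *fgfr4* (QKD 1166 and 1034, WT 2059 and 1655, -0.75 ± 0.12, adjusted p = 0.00314) and the feedback inhibitors *dusp6* (QKD 508 and 491, WT 834 and 1031, -0.89 ± 0.12, adjusted p = 0.000756) and *il17rd* (QKD 276 and 332, WT 482 and 626, -0.86 ± 0.14, adjusted p = 0.00261) were lower, with a dimmer *dusp6* probe set not called at -0.08. The inhibitor *spry4* was higher instead (QKD 628 and 704, WT 419 and 434, 0.64 ± 0.11, adjusted p = 0.00381), and the ligand *fgf8a* gave QKD 347 and 329, WT 319 and 296 (adjusted p = 0.511). Among Wnt receptors *fzd9b* (QKD 167 and 139.9, WT 338 and 349.6, -1.17 ± 0.11, adjusted p = 5.54e-05) and *fzd8a* (QKD 491 and 478, WT 805 and 787, -0.72 ± 0.12, adjusted p = 0.00304) were lower on every probe set. Calls lower and higher numbered 14 and 5 with the replicate block, 9 and 1 without QKD replicate 1, 9 and 1 without QKD replicate 2, 12 and 1 without WT replicate 1.

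In the Nodal pathway the co-receptor and the antagonists were lower while the ligands gave no call. *tdgf1*, the EGF-CFC co-receptor also known as one-eyed pinhead, had 241 and 260.4 in QKD embryos, against 1166 and 1423 in WT embryos (-2.36 ± 0.15, adjusted p = 5.54e-06). The Nodal antagonist *lft2* gave 99.1 and 127 in QKD embryos, against 302 and 422 in WT embryos (-1.67 ± 0.18, adjusted p = 0.000177), and *lft1* 105 and 149.9 in QKD embryos, against 227 and 302 in WT embryos (-1.06 ± 0.22, adjusted p = 0.012), a call lost without QKD replicate 1 (adjusted p = 0.11) or WT replicate 2 (0.0791). The ligands *ndr1* (QKD 26.4 and 25.01, WT 26.6 and 32.1) and *ndr2* (QKD 149 and 144, WT 134 and 165) had adjusted p of 0.55 and 0.957. Signals of *ndr1* lay little above the lower quartile in both groups, so a fall could hardly have been measured for it. On the whole list of endoderm and Nodal genes 4 of 22 were lower and 2 higher, with a median of -0.08, and the endodermal factor *sox32* measured QKD 919 and 1108, WT 1424 and 1518 (adjusted p = 0.175, and 0.00304 with the replicate block). The numbers lower and higher were 2 and 0 without QKD replicate 1, 3 and 0 without QKD replicate 2, 4 and 1 without WT replicate 1, 2 and 0 without WT replicate 2.

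**Figure D3:**
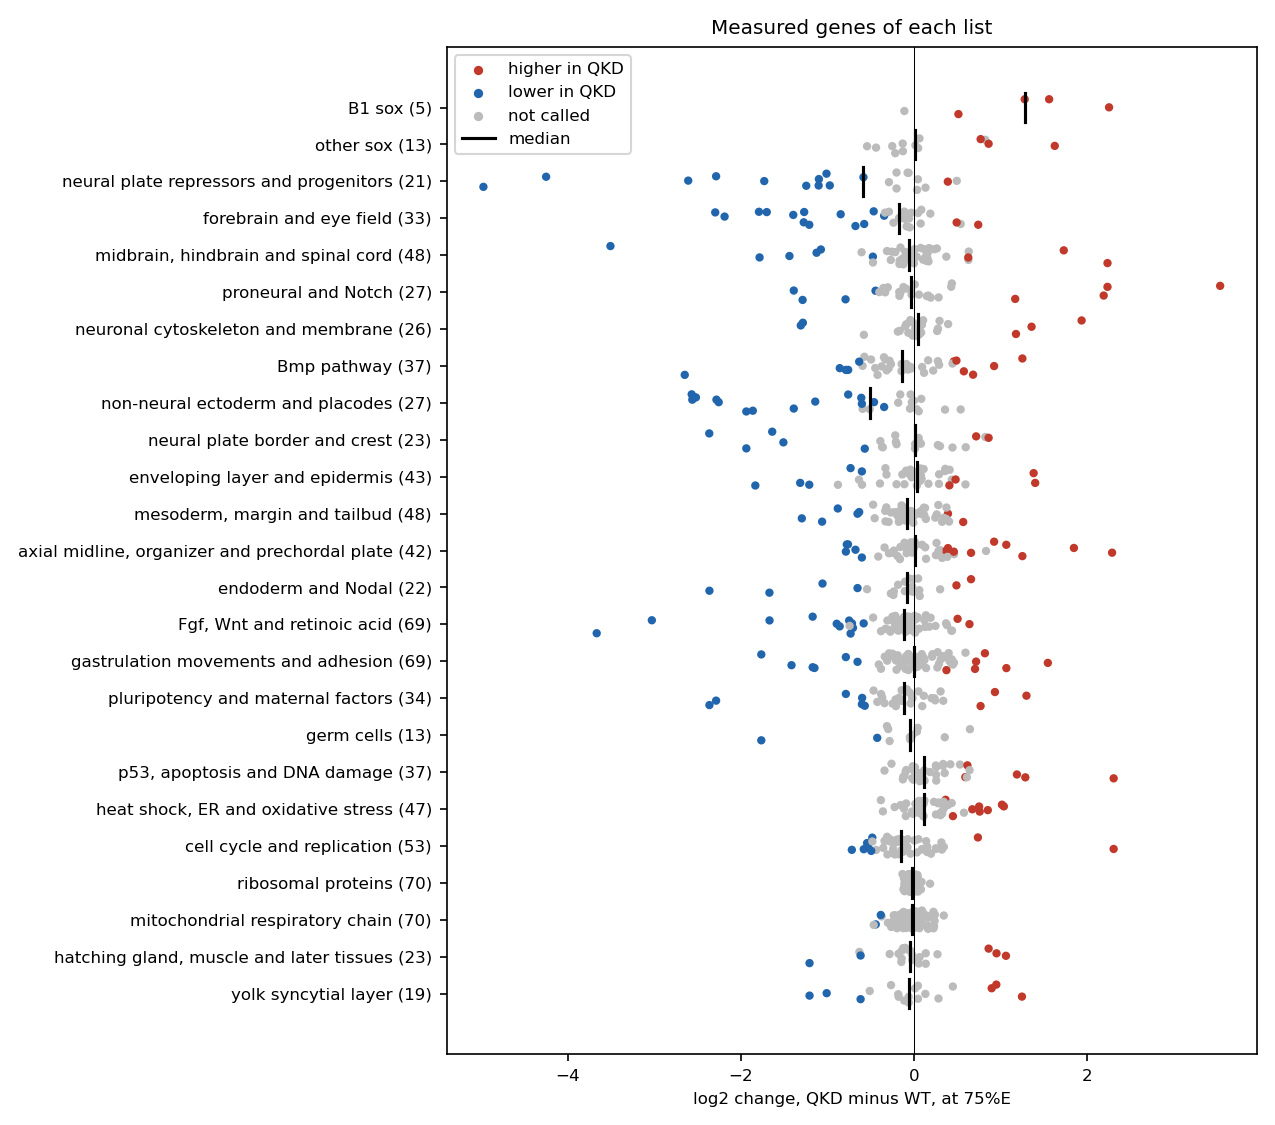
Each row is a gene list with the number of measured genes in brackets, and each point is a gene placed by its log2 change, QKD minus WT, at 75%E, coloured by its call, with a bar at the median. The lists for neural plate repressors (11 of 21 lower) and non-neural ectoderm (14 of 27 lower) lie farthest to the left, and no ribosomal protein gene of 70 was called. All lists were chosen with earlier results of these data known.

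Of 48 mesoderm and margin genes 5 were lower (10.4%) and 2 higher, with a median of -0.08. *apela*, the secreted peptide Toddler that guides mesendodermal cells, was the largest decrease with 529.9 and 548 in QKD embryos, against 1251 and 1400.1 in WT embryos (-1.30 ± 0.15, adjusted p = 0.000347). The 2 increases were *tbxta* (0.39) and *myod1* (0.57), and each of these calls was lost with at least 1 array left out. *tbx16*, a T-box factor of the margin, gave 2592 and 2752 in QKD embryos, against 2385 and 2542 in WT embryos (adjusted p = 0.73). The caudal gene *cdx4* was at QKD 3172 and 3237, WT 3574 and 3301 (adjusted p = 0.634), and the clock genes *her1* (QKD 233 and 275, WT 190.2 and 216) and *her7* (QKD 324 and 342, WT 369 and 315) were likewise not called (adjusted p = 0.253 and 0.949). Lower and higher genes numbered 8 and 5 with the replicate block, 2 and 0 without QKD replicate 1, 4 and 0 without QKD replicate 2, 4 and 0 without WT replicate 1, 3 and 3 without WT replicate 2. On the list for axial midline, organizer and prechordal plate 5 of 42 were lower and 9 higher, with a median of 0.02. The organizer genes *gsc* (QKD 489 and 543, WT 359.8 and 515) and *noto* (QKD 977 and 949, WT 732 and 831) did not pass (adjusted p = 0.449 and 0.139). The increases included *sparc* and *fkbp9*. *sparc*, a matrix glycoprotein, had 215 and 181 in QKD embryos, against 30.6 and 53.3 in WT embryos (2.29 ± 0.22, adjusted p = 8.96e-05), and *fkbp9*, a prolyl isomerase of the endoplasmic reticulum, 791 and 823 in QKD embryos, against 179 and 281 in WT embryos (1.85 ± 0.20, adjusted p = 0.000167). Other members that build matrix or fold proteins, namely *serpinh1b* (0.32), *p4ha1b* (0.83, adjusted p = 0.107, and 0.00148 with the replicate block), *calr* (0.25), *col2a1a* (-0.16) and *col8a1a* (0.02), were not called. *gli2a*, a transcription factor of Hedgehog signalling, was lower (QKD 209 and 181, WT 345 and 322, -0.78 ± 0.11, adjusted p = 0.00176). Counts of lower and higher genes became 4 and 3 without QKD replicate 1, 2 and 4 without QKD replicate 2, 6 and 5 without WT replicate 1, 3 and 7 without WT replicate 2.

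Genes of gastrulation movement and adhesion were lower in 6 of 69 cases and higher in 6, with a median of 0.00. Chemokine receptors were among the decreases. The receptor *cxcr4b* had 71.0 and 81.6 in QKD embryos, against 216 and 310.0 in WT embryos (-1.76 ± 0.16, adjusted p = 6.12e-05), and the scavenging receptor *ackr3b* 187 and 215 in QKD embryos, against 417 and 476 in WT embryos (-1.15 ± 0.13, adjusted p = 0.000261). The ligand *cxcl12b* was higher, with 656 and 760.0 in QKD embryos, against 422 and 438 in WT embryos (0.72 ± 0.11, adjusted p = 0.00195). *pcdh18a*, a protocadherin of migrating neuroectoderm and mesoderm, gave 24.8 and 24.7 in QKD embryos, against 51.1 and 85.3 in WT embryos (-1.42 ± 0.20, adjusted p = 0.00146), and a dimmer probe set at -0.34 was not called. On the brighter probe set the QKD arrays lay little above the lower quartile. The claudin *cldn3c* of tight junctions was higher (QKD 47.6 and 49.8, WT 21.8 and 24.8, 1.07 ± 0.15, adjusted p = 0.00108). E-cadherin, *cdh1*, did not pass at QKD 1570.0 and 1616, WT 1346 and 1265 (adjusted p = 0.0831) but did with the replicate block (adjusted p = 0.0493), and N-cadherin, *cdh2*, gave QKD 1822 and 1945, WT 1613 and 1637 (adjusted p = 0.48). The ligand *wnt5b* gave QKD 229.9 and 239, WT 287 and 248 (adjusted p = 0.495). The gene measured under the present symbol *wnt11* was near background throughout (QKD 13.6 and 13.4, WT 13.0 and 14.2). *wnt11f2*, also on the list, was not measured, and which of these genes the study calls *wnt11* was not examined. These lower and higher counts were 9 and 15 with the replicate block, 4 and 3 without QKD replicate 2.

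Outer and extraembryonic tissues changed in single genes. Of 43 genes of the enveloping layer and epidermis 5 were lower and 4 higher, with a median of 0.03, and their summed signal was 63659 to 66814 in QKD embryos and 62480.4 to 65711 in WT embryos. *lad1*, an anchoring filament protein (QKD 108 and 119, WT 45.8 and 40.2, 1.40 ± 0.11, adjusted p = 1.83e-05), and *ahnak*, a large scaffold protein (QKD 93.7 and 81.2, WT 35.4 and 31.7, 1.38 ± 0.24, adjusted p = 0.00427), were higher. *scinlb*, an actin-severing scinderin (QKD 282 and 279, WT 609 and 799, -1.32 ± 0.23, adjusted p = 0.0049), and *nccrp1* (QKD 111 and 94.9, WT 271 and 209, -1.21 ± 0.16, adjusted p = 0.00066) were lower. On this list the lower and higher calls were 7 and 8 with the replicate block, 3 and 3 without QKD replicate 1, 5 and 2 without QKD replicate 2. Of 19 yolk syncytial layer genes 3 were lower and 3 higher. The transferrin gene *tfa* (QKD 711 and 609, WT 1664 and 1387, -1.21 ± 0.15, adjusted p = 0.000574) and the apolipoprotein gene *apoc1* (QKD 2836 and 2717, WT 5937 and 5254, -1.01 ± 0.15, adjusted p = 0.00176) fell, and *apobb.1* (QKD 562 and 706, WT 362 and 293, 0.95 ± 0.14, adjusted p = 0.00207), another apolipoprotein gene, rose. Among 13 germ cell genes 2 were lower, *cxcr4b* above and *celf1* (QKD 379 and 394, WT 539.7 and 499, -0.43 ± 0.11, adjusted p = 0.0351), whose dimmer probe set at 0.09 was not called and whose call was lost without QKD replicate 1 (adjusted p = 0.167), QKD replicate 2 (0.122), WT replicate 1 (0.124) or WT replicate 2 (0.055), and *nanos3* gave QKD 147 and 225, WT 130.0 and 239 (adjusted p = 0.969). The summed signal of this list was 1987 to 2023 in QKD embryos and 2456 to 2517 in WT embryos. That sum includes *celf1* and *cxcr4b*, the latter also on the list for gastrulation movement, and does not measure germ cell number. Calls lower and higher numbered 2 and 1 with the replicate block, 1 and 0 without QKD replicate 1, 1 and 0 without QKD replicate 2, 1 and 0 without WT replicate 1, 1 and 0 without WT replicate 2. Of 23 genes of hatching gland, muscle and later tissues 2 were lower and 3 higher, with *ckma*, a muscle creatine kinase, at QKD 145 and 116, WT 62.5 and 61.9 (1.06 ± 0.13, adjusted p = 0.0004). The numbers lower and higher were 1 and 3 without QKD replicate 1. The part of these tissues in the other results was not tested.

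Pluripotency and maternal factors were lower in 6 of 34 cases and higher in 3, with a median of -0.11. The POU factor *pou5f3*, the zebrafish counterpart of Oct4, had signals of 6033 and 5548 in QKD embryos, against 6019 and 6008 in WT embryos (adjusted p = 0.897). *pou2f1b*, another POU gene, was higher on both of its probe sets, with 1448 and 1522 in QKD embryos, against 616 and 592 in WT embryos on the brighter (1.30 ± 0.13, adjusted p = 8.98e-05). The Myc genes diverged, with *mych* higher (QKD 1831 and 1855, WT 1084 and 1079.7, 0.77 ± 0.13, adjusted p = 0.00415) and *mycla* lower (QKD 589.7 and 599, WT 822 and 987, -0.60 ± 0.11, adjusted p = 0.00733), the call of *mycla* being lost without QKD replicate 1 (adjusted p = 0.054). Lower and higher genes numbered 8 and 5 with the replicate block, 3 and 2 without QKD replicate 1.

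Genes of the p53 response, apoptosis and DNA damage were higher in 5 of 37 cases and lower in 0, with a median of 0.12. *birc5b*, a survivin gene that inhibits apoptosis and serves in mitosis, was the largest, with 531 and 651 in QKD embryos, against 124 and 114 in WT embryos (2.30 ± 0.11, adjusted p = 6.32e-07). *ddb2*, which recognises ultraviolet damage and is a p53 target in mammals, gave 161 and 138 in QKD embryos, against 60.7 and 70.7 in WT embryos (1.19 ± 0.13, adjusted p = 0.000185). The remaining increases were *bokb* (1.285), *bbc3* (0.62) and *gadd45ab* (0.59). Of the 5 calls on this list 2 stayed whichever array was left out. The p53 regulator *mdm2* was at QKD 295 and 349, WT 324 and 378 (adjusted p = 0.709), and the apoptosis gene *baxa* at QKD 373 and 396, WT 296 and 314 (adjusted p = 0.188, and 0.0496 with the replicate block). Counts of lower and higher genes became 1 and 11 with the replicate block, 0 and 3 without QKD replicate 1, 0 and 2 without QKD replicate 2. On the list for heat shock, endoplasmic reticulum and oxidative stress 8 of 47 were higher and 0 lower, with a median of 0.12. Only *junba*, an immediate early factor, kept its call whichever array was left out (QKD 31.8 and 27.22, WT 14.1 and 14.5, 1.04 ± 0.14, adjusted p = 0.001), and since its WT arrays were near background it was at least 1.27-fold higher. The endoplasmic reticulum chaperone *hspa5* gave QKD 675 and 771, WT 458 and 974 (adjusted p = 0.887). These lower and higher counts were 2 and 13 with the replicate block, 0 and 3 without QKD replicate 1, 0 and 2 without QKD replicate 2, 0 and 3 without WT replicate 1. The part of an injection response in the other results was not tested.

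Of 53 cell cycle genes 6 were lower and 2 higher, with a median of -0.15. *rrm1*, a ribonucleotide reductase subunit, had 2169 and 2345 in QKD embryos, against 3363 and 3382 in WT embryos (-0.58 ± 0.09, adjusted p = 0.00263). The 5 other decreases were the replicative helicase genes *mcm2* (-0.53), *mcm4* (-0.54), *mcm5* (-0.48), *mcm6l* (-0.72) and *mcm7* (-0.49), with adjusted p of 0.0414, 0.00948, 0.0371, 0.0389 and 0.0239. Those 5 calls did not stand up to leaving out an array, being lost for *mcm2* without QKD replicate 1 (adjusted p = 0.225), QKD replicate 2 (0.0908) or WT replicate 2 (0.206), for *mcm4* without QKD replicate 1 (0.0602), QKD replicate 2 (0.0602) or WT replicate 2 (0.0545), for *mcm5* without QKD replicate 1 (0.167), QKD replicate 2 (0.133) or WT replicate 2 (0.187), for *mcm6l* without QKD replicate 1 (0.23), QKD replicate 2 (0.0699) or WT replicate 2 (0.207), and for *mcm7* without QKD replicate 1 (0.162), QKD replicate 2 (0.0593) or WT replicate 2 (0.123). *ccnd1*, cyclin D1, was higher, with 5381 and 5242 in QKD embryos, against 3488 and 2909 in WT embryos (0.74 ± 0.12, adjusted p = 0.00373). On this list the lower and higher calls were 13 and 3 with the replicate block, 1 and 2 without QKD replicate 1, 1 and 2 without QKD replicate 2, 1 and 2 without WT replicate 2. Among housekeeping genes, 0 of 70 ribosomal protein genes were called at a median of -0.02, also with the replicate block, and 2 of 70 respiratory chain genes were lower. Calls lower and higher numbered 4 and 1 with the replicate block, 1 and 0 without QKD replicate 1, 0 and 0 without QKD replicate 2, 0 and 1 without WT replicate 2.

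Some of the largest changes fell outside the lists. *inaa*, an internexin of neuronal intermediate filaments, had signals of 25.2 and 24.7 in QKD embryos, against 247 and 249 in WT embryos (-3.31 ± 0.11, adjusted p = 6.41e-08). Its arrays agreed within each group and the fitted fall was 9.94-fold, but the QKD arrays lay little above the lower quartile, so the fold is not exact. *tmem38a*, a cation channel of internal membranes, gave 71.5 and 51.6 in QKD embryos, against 533 and 468 in WT embryos (-3.04 ± 0.25, adjusted p = 3.04e-05). Also lower were *arg2*, a mitochondrial arginase (QKD 33.4 and 26.9, WT 190.3 and 226, -2.79 ± 0.24, adjusted p = 3.58e-05), *gpd1b*, a glycerol-3-phosphate dehydrogenase (QKD 131 and 142, WT 738 and 816, -2.51 ± 0.16, adjusted p = 5.54e-06), and *slc38a2*, an amino acid transporter (QKD 53.8 and 71.5, WT 322 and 297, -2.32 ± 0.15, adjusted p = 5.31e-06). A gene with no assigned role, *si:dkey-27i16.2*, gave QKD 51.4 and 37.2, WT 332 and 191 (-2.52 ± 0.23, adjusted p = 5.54e-05). Among increases, *nat8l*, which makes N-acetylaspartate, had 152 and 199 in QKD embryos, against 22.9 and 38.6 in WT embryos (2.55 ± 0.23, adjusted p = 5.54e-05). *arl3l1*, a small GTPase of the Arf-like family, had 228 and 71.8 in QKD embryos, against 24.8 and 17.8 in WT embryos (2.61 ± 0.39, adjusted p = 0.00199), with QKD arrays 3.18-fold apart and changes of 1.77 without QKD replicate 1 and 3.44 without QKD replicate 2. The WT arrays of *arl3l1* were close to the lower quartile. *bmi1a*, a Polycomb protein, measured 239.8 and 325 in QKD embryos, against 46.2 and 72.6 in WT embryos (2.27 ± 0.19, adjusted p = 3.58e-05). *foxp2*, a forkhead factor, gave 287 and 276 in QKD embryos, against 58.0 and 69.1 in WT embryos (2.15 ± 0.11, adjusted p = 9.46e-07). The others were *zgc:175214* (2.39), *si:dkeyp-1h4.9* (1.93), *emp2* (1.88), *angptl4* (1.85), *fam168a* (1.80) and *ankrd22* (1.74), with adjusted p of 0.00306 or less. Of these, *fam168a* had 3 other probe sets that were not called, at -0.01 to 0.13. Both WT arrays were near background for *si:dkeyp-1h4.9*, at least 3.72-fold higher, and for *fam168a*, at least 2.27-fold higher. All 20 of the largest decreases and all 20 of the largest increases kept their calls whichever array of the 4 was left out.

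The changes of mid gastrulation were set against those of the other stages by testing the difference of the 2 changes. Against 30%E, 707 probe sets differed (4.56%), 384 with a more negative and 323 with a more positive change at 75%E. Against TB, 105 differed (0.677%), 33 more negative and 72 more positive. These counts were 1875 and 443 with the replicate block, 343 and 60 without QKD replicate 1, 413 and 50 without QKD replicate 2. *mdkb* was much alike in both groups at 30%E (QKD 60.3 and 48.7, WT 67.0 and 63.9, adjusted p = 0.462), and at TB it was lower in QKD embryos with a change of -4.09 (QKD 162 and 153, WT 2784 and 2607). Its WT arrays were dimmer at 30%E than at 75%E, which limits the fall that could be measured at 30%E. *klf2b* was higher in QKD embryos at 30%E (QKD 886 and 904, WT 499.6 and 480.2, change 0.87) and lower at 75%E (-2.26). *lmo4a* and *foxb1b* turned in the same manner, with changes of 0.85 and 1.02 at 30%E against -1.70 and -1.01 at 75%E, and differences of -2.55 ± 0.19, adjusted p = 3.68e-05 and -2.03 ± 0.17, adjusted p = 7.87e-05. *sox2* was lower at 30%E (QKD 51.5 and 35.5, WT 82.2 and 82.0). The clock genes *her1* and *her7*, not called at 75%E, were lower in QKD embryos at 30%E, at QKD 16.15 and 17.4, WT 67.2 and 94.4 and at QKD 17.8 and 17.8, WT 146 and 223. Their QKD signals at 30%E were under the lower quartiles of those arrays, 21.0 and 20.6, so the size of these falls is not exact.

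Other genes deviated at 75%E more than at TB. *dbx1a* was at QKD 133 and 108, WT 241 and 180.0 at TB, a change of -0.80 against -3.51 at 75%E. *prdm14* did not pass the test at TB, with QKD 195 and 152, WT 139.9 and 162 and a change of 0.19 (adjusted p = 0.74). *lhx5* was instead higher in QKD embryos at TB (QKD 302 and 226, WT 146 and 149, change 0.82, adjusted p = 0.00359). *inaa* differed by -1.82 ± 0.15, adjusted p = 0.000417. Among increases, *nat8l* (QKD 109 and 122, WT 110.0 and 90.6), *dlb* (QKD 44.1 and 35.5, WT 75.2 and 64.0) and *olig2* (QKD 282 and 224, WT 186 and 162) did not pass the test at TB (adjusted p = 0.766, 0.225 and 0.156), and the differences were 2.34 ± 0.33, adjusted p = 0.008 for *nat8l*, 3.00 ± 0.48, adjusted p = 0.0158 for *dlb* and 1.70 ± 0.27, adjusted p = 0.0166 for *olig2*. *neurog1* ran the other way, with a change of -1.39 at 75%E and -3.74 at TB, where signals were QKD 36.8 and 22.6, WT 408 and 362. Its QKD arrays at 75%E lay close to the lower quartile, and its WT arrays were dimmer there than at TB. This limits the fall that could be measured at 75%E, so a weaker loss at that stage cannot be read from the difference. *ascl1a* was higher by 3.54 at 75%E and 1.55 at TB, and that difference did not pass (1.98 ± 0.58, adjusted p = 0.209).

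**Figure D4:**
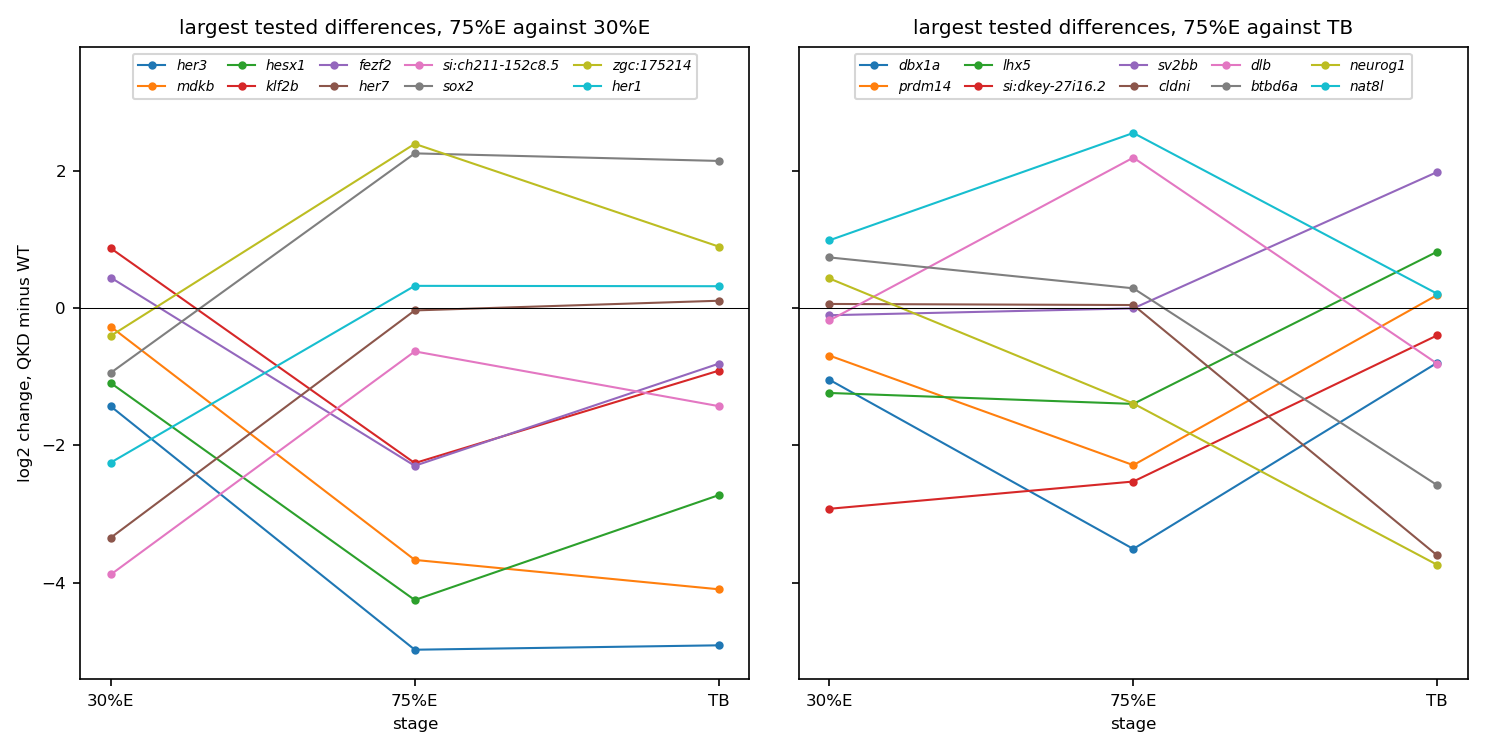
Each line is a gene, with its log2 change, QKD minus WT, at 30%E, 75%E and TB, for the genes with the largest tested differences between 75%E and 30%E (left) and between 75%E and TB (right). The changes of *her3*, *mdkb* and *hesx1* are more negative at 75%E than at 30%E and stay low, while *dbx1a*, *prdm14* and *nat8l* are farthest from 0 at 75%E. WT signals of *mdkb* were dimmer at 30%E than at 75%E, which limits the fall that could be measured at 30%E.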

How the data were processed

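Total RNA of whole embryos was hybridised to 1-colour Affymetrix Zebrafish Genome arrays. The intensity values deposited by the authors are linear RMA signals, whose program version and grouping of arrays are not given in the sources used here. RMA corrects background, normalises between arrays and summarises probes, and these steps could not be repeated. Log2 was taken, and the 6 group means were fitted over all 12 arrays with limma 3.58.1 in R 4.3.3 (lmFit, eBayes, 6 residual and 5.11 prior degrees of freedom) with Benjamini-Hochberg adjustment over 15502 probe sets. Differences between stages are contrasts of that fit. Of these probe sets 10795 have 1 gene symbol, 135 several and 4572 none in the platform annotation, updated through Entrez identifiers. For 1539 genes with several probe sets the brightest was used. Tables and figures were made with pandas 2.3.3, numpy 2.4.6 and matplotlib 3.10.9 under Python 3.11.15. The fit was tested on simulated data. Precision is limited by having 2 arrays in each group.

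The members and the 25 gene lists (819 of 1072 genes measured) were chosen with earlier results of these data known. Named genes are the top 20 in each direction by log2 change, if called, with 1 symbol and without overlap of groups, measured list members, and up to 5 genes per direction with the largest tested stage difference. Same-numbered WT and QKD samples deviated together (correlations of 0.615, 0.443 and 0.488 at 30%E, 75%E and TB), so the replicate number was fitted as a block beside the main design, and a value with it is given where it changes a call or moves a count by over 1.5 times. Alternatives were median centring, a further quantile normalization, a variance trend, leaving out the dimmest 40% of probe sets, the 4 arrays alone, 1 array left out, the study's criterion of a ratio over 2 between mean signals and Student's t-test on linear signals. Bounds on folds at the lower quartile were added after seeing the data. Promoter motifs were not analysed here. Some genes on the lists were not analysed here.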

Additional observations from a re-analysis of the deposited data

Results flagged for a closer look

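For 20 genes the change at 75%E differed, by a test of the difference itself, from that at another stage, and these were the largest in each direction. Against 30%E the change at 75%E was more negative by 2 or more log2 units for *her3* (-3.54 ± 0.24, adjusted p = 2.19e-05), *mdkb* (-3.39 ± 0.23, adjusted p = 2.19e-05), *hesx1* (-3.16 ± 0.31, adjusted p = 0.000264), *klf2b* (-3.13 ± 0.22, adjusted p = 2.19e-05) and *fezf2* (-2.74 ± 0.30, adjusted p = 0.000568). WT signals of *mdkb* were dimmer at 30%E than at 75%E, which limits the fall measurable at 30%E. Both QKD arrays of *her3* and *hesx1* at 75%E were near background, so the differences of these genes are not exact. The change at 75%E was more positive than at 30%E for *her7* (3.31 ± 0.25, adjusted p = 3.19e-05), *si:ch211-152c8.5* (3.25 ± 0.36, adjusted p = 0.000654), *sox2* (3.19 ± 0.20, adjusted p = 2.19e-05), *zgc:175214* (2.79 ± 0.27, adjusted p = 0.000217) and *her1* (2.57 ± 0.22, adjusted p = 7.87e-05). Of these, *her7*, *her1* and *si:ch211-152c8.5* were not called at 75%E (adjusted p = 0.949, 0.253 and 0.181), and their differences come from changes of -3.34, -2.25 and -3.88 at 30%E. Both QKD arrays of *her7* and *her1* at 30%E were under the lower quartile of their arrays, so these changes and differences are not exact.

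Against TB the change at 75%E was more negative for *dbx1a* (-2.71 ± 0.27, adjusted p = 0.00151), *prdm14* (-2.48 ± 0.28, adjusted p = 0.00225), *lhx5* (-2.22 ± 0.19, adjusted p = 0.000457), *si:dkey-27i16.2* (-2.13 ± 0.32, adjusted p = 0.0134) and *sv2bb* (-1.99 ± 0.22, adjusted p = 0.00225). Both QKD arrays of *dbx1a* at 75%E were near background, so that difference is not exact either. It was more positive for *cldni* (3.64 ± 0.57, adjusted p = 0.0147), *dlb* (3.00 ± 0.48, adjusted p = 0.0158), *btbd6a* (2.87 ± 0.21, adjusted p = 0.00022), *neurog1* (2.35 ± 0.28, adjusted p = 0.00366) and *nat8l* (2.34 ± 0.33, adjusted p = 0.008). The QKD arrays of *neurog1* at 75%E lay close to the lower quartile, so its difference is not exact. *sv2bb*, *cldni* and *btbd6a* had signals near background on all 4 arrays of 75%E or little above it, and moved only at TB (changes of 1.98, -3.60 and -2.58). With 2 arrays per group no array was tested for standing apart.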

How the results depend on the processing

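A tally was made over 178 named genes, of which 125 were called at 75%E. All of those kept their direction under every alternative run. Some genes given above only by their change are outside the tally, *chrd*, *nog1*, *nog3*, *admp*, *bokb*, *bbc3* and *gadd45ab* among them. The calls of these genes were each lost with at least 1 array left out, so the counts that follow leave out some unstable calls. Calls were kept for 125 with the replicate block, with median centring and with a variance trend, 123 with a further quantile normalization, and 109 of the 109 left by the filter at the 40th percentile of mean signal. Fewer stood with less data, 109 on the 4 arrays alone, 106 without QKD replicate 1, 110 without QKD replicate 2, 116 without WT replicate 1 and 113 without WT replicate 2. The block added a call for 9 of the 53 named genes not called. The 605 probe sets lower and 696 higher became 1209 and 1413 with the block, 284 and 300 on the 4 arrays alone, 287 and 310 at an adjusted p under 0.01, 143 and 148 by the study's ratio over 2, and 406 and 414 with 1 probe set per gene, where fewer features were tested. Student's t-test on linear signals of the 4 arrays gave 921 and 867 at an unadjusted p under 0.05 and 0 and 0 after Benjamini-Hochberg adjustment, against 3300 at an unadjusted p under 0.05 in limma. Leaving out 1 array gave 303 to 573 lower and 305 to 650 higher. Counts beyond 1 in log2 were 142 and 144 and moved by over 1.5 times only with 1 probe set per gene, to 85 higher. Leaving out 1 array gave 136 to 158 lower and 122 to 196 higher there. The 707 differences from 30%E and 105 from TB became 1875 and 443 with the block, 343 to 761 and 50 to 125 with 1 array left out, and 51 from TB after the filter. Apart from settings that use fewer arrays or fewer features, the cause was not tested. The study's labels give no scan or hybridisation batch, and signals near background limit how far a decrease can be measured.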

Other observations

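Replicate arrays lay over 2-fold apart for 16 of 8793 genes in QKD embryos and for 52 in WT embryos. Among the 820 genes called, which had to differ by more than the spread, these numbers were 6 and 4, and the called genes were named after their values were seen. *ascl1a*, *arl3l1*, *dlb* and *krt94*, a keratin gene with QKD 141 and 66.8 and WT 32.2 and 33.5, were higher in QKD replicate 1 than in QKD replicate 2. *tagln2*, a transgelin gene, had QKD 104 and 384 and WT 606 and 839, and *si:ch211-105c13.3* had QKD 42.6 and 114 and WT 259 and 368, both lower in QKD replicate 1. Between WT arrays the genes were *rx3*, *angptl4*, *rassf8b* and *stt3b*. With an array left out, calls were lost for *tagln2* without QKD replicate 1 (adjusted p = 0.27), WT replicate 1 (0.0798) or WT replicate 2 (0.18), for *si:ch211-105c13.3* without QKD replicate 1 (0.0506) or WT replicate 2 (0.0516), for *rassf8b* without QKD replicate 1 (0.0532), QKD replicate 2 (0.286) or WT replicate 1 (0.182), and for *stt3b* without QKD replicate 1 (0.0978) or QKD replicate 2 (0.0998). The change of *tagln2* was -0.89 without QKD replicate 1 and -1.83 with all arrays, that of *si:ch211-105c13.3* -1.44 and -2.15. Without WT replicate 1 the change of *rassf8b* was 0.57, against 1.17 with all arrays, and that of *stt3b* 0.59, against 1.18. Over the called genes the median gap between replicate arrays was 0.12 in log2 in QKD embryos and 0.17 in WT embryos.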
